A study of Mus musculus with 6 samples.

Results

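The apolipoprotein genes Apoe, Apoc1, Apoc4 and Apoc2 lie side by side on mouse chromosome 7, and their transcripts were followed in the fasted liver of mice lacking Creb3l3. Every array probe whose deposited symbol was one of these 4 names was taken, which gave 4 of 30869 gene symbols and 6 of the 45281 probes: 1 for Apoe (ILMN_1216042), 2 for Apoc1 (ILMN_2599794 and ILMN_1228469), 1 for Apoc4 (ILMN_3009225) and 2 for Apoc2 (ILMN_2647820 and ILMN_2880540). The knockout group held 3 mice with the genotype Creb3l3 KO and the other group 3 wild-type littermates. All 6 were C57BL/6 males on normal chow, and all had been fasted for 24 h. Each liver was measured on its own array of the Illumina WG-6 type, made of beads that carry gene probes, with biotin-labelled cRNA. How the Creb3l3 allele was made, in which cells it was lost and the age of the mice are left unsaid by the labels and the series' design text.

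Apolipoproteins are the protein coat of lipoproteins, the particles that carry triglyceride and cholesterol in blood. The liver is the main source of the proteins of this cluster, and macrophages also express Apoe and Apoc1. Apolipoprotein E binds receptors on liver cells and so lets remnant particles be taken up. Apolipoprotein C-II is the cofactor that lipoprotein lipase needs to hydrolyse triglyceride. Apolipoprotein C-I slows lipase action and particle uptake, and apolipoprotein C-IV is a minor protein of very-low-density lipoprotein. In the human locus, distal hepatic control regions are shared by these genes, and in macrophages the genes of the cluster are known targets of the liver X receptors. Creb3l3 encodes CREBH, a transcription factor held in the endoplasmic reticulum membrane that is cleaved and sent to the nucleus in fasting. The comparison asks which genes of the cluster differ in the fasted liver when that factor is missing.

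In the RefSeq table of assembly GRCm38.p6 the neighbours run in the order Relb, Clptm1, Apoc2, Apoc4, Apoc1, Apoe, Tomm40, Nectin2 and Bcam. That table also lists Gm44805, a readthrough gene with the synonym Apoc4-apoc2, whose span takes in both Apoc2 and Apoc4. The array files give no probe sequence, so whether an Apoc2 or Apoc4 probe also binds the readthrough transcript cannot be told apart here. Of the 4 genes, 3 matched the RefSeq promoter table of the same assembly. One start each of Apoc2, Apoc4 and Apoe is printed 5′ to 3′ for the cofactor gene, its neighbour and the receptor ligand, the genes set against each other below, and each window runs from 250 bases before the annotated start to 50 after it. All are on the minus strand, the Apoc2 window at chr7:19677892-19678191, the Apoc4 window at chr7:19681411-19681710 and the Apoe window at chr7:19699139-19699438, which is the farthest upstream of 3 Apoe starts. Capitals mark ACGT, the core shared by cyclic AMP response elements and related sites, and TGACG or its reverse complement CGTCA, the first letters of such an element.
Apoc2: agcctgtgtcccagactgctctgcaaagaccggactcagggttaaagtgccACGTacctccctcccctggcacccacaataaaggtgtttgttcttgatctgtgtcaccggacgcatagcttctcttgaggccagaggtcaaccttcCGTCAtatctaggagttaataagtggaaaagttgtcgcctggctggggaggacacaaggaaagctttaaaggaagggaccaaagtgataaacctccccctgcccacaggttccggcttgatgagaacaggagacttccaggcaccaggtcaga
Apoc4: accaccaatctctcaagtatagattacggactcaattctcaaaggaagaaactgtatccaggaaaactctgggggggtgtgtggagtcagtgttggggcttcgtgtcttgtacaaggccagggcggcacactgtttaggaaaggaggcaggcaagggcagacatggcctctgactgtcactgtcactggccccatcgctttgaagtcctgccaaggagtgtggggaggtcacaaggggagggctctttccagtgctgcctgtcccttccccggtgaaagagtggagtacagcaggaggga
Apoe: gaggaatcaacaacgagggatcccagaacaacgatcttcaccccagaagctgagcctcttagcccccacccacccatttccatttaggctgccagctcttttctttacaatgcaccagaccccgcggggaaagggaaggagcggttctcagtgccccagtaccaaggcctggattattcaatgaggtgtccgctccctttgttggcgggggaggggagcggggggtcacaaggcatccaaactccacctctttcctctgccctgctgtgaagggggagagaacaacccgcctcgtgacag
The Apoc2 window held 1 ACGT, starting 199 bases before the annotated start, and 1 CGTCA, starting 103 bases before it. The windows of Apoc4 and of all 3 Apoe starts held neither. Searched on both strands, ACGT occurred in 30.9% and TGACG in 20.8% of 32851 promoter windows of 300 bases, and the whole element TGACGTCA, which contains both, occurred in 1.79% of them and in none of the windows of the cluster. These matches describe letters and not bound sites.

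The array of knockout replicate 3 stood apart from the others. It reached a detection p under 0.05 at 4302 probes, against 11846 to 16224 on the other 5 arrays, and Pearson's r across probes was 0.676 to 0.697 between it and any other array, against 0.973 to 0.993 among those 5. The array of knockout replicate 1 was also dim, with a mean deposited signal of 149, against 246 for knockout replicate 2 and 219 to 252 in wild type. The comparisons between genotypes below are given for the 5 arrays without knockout replicate 3 and for all 6, and the nearest profiles for the 5 arrays alone. For Creb3l3 the signals were 148, 283 and 87.9 in knockout replicates 1, 2 and 3, against 1201, 949 and 929 in wild type. The log2 change of Creb3l3 was -2.32 in the 5 arrays (limma adjusted p = 0.00271). In all 6 arrays Creb3l3 had -2.72 and was not called (limma adjusted p = 0.574). The files do not place its probe relative to the deleted part, so it may not check the genotype. Of the liver's defining markers, 8 of 10 hepatocyte genes were measured, and 0 of the listed adipocyte, acinar pancreas and enterocyte markers were detected on at least 3 of the 5 arrays.

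Within the cluster, the 2 Apoc2 probes were lower in the knockout in the 5 arrays, 1.58-fold at the brighter and 2.05-fold at the dimmer one, and neither passed the threshold of an adjusted p under 0.05. The probes of Apoc4 and Apoe also had negative log2 changes, of -0.22 and -0.14, with intervals that include 0, and both Apoc1 probes lay close to 0. In the 5 arrays limma called 0 of 6 probes of the cluster, where it called 0.342% of all 14345 tested probes, 0.279% lower and 0.0627% higher in the knockout. In all 6 arrays it called 0 of 6, and 0% of 14494. At an unadjusted p under 0.05 limma gave 2 of 6 in the 5 arrays, both Apoc2 probes and both lower, where 12.1% of all probes had such a p and 7.47% were lower with it. In all 6 arrays it gave 0 of 6, against 3.85% of all probes and 3.3% lower. Values below 0 were given by 4 of 6 probes in the 5 arrays, against 54.7% of all, and by 5 of 6 in all 6 arrays, against 72.7%. All 6 passed the detection filter, with detection on knockout replicates 1 and 2 and on 3 of 3 wild-type arrays.

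**Figure D1:**
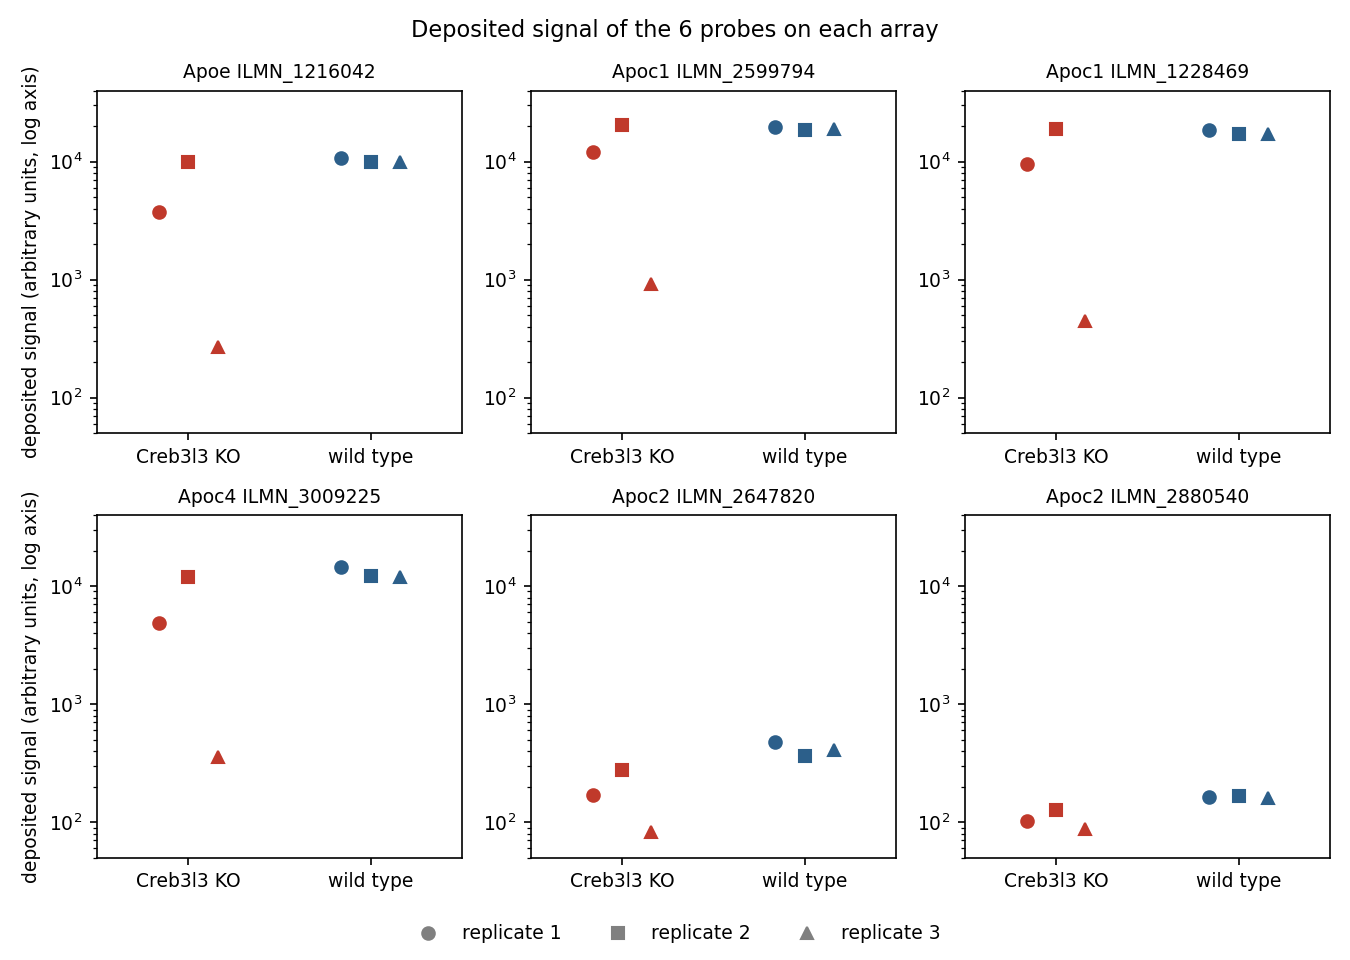
Deposited signal in arbitrary units on a log axis for the 6 probes of the cluster, with 1 point per array and knockout arrays left of wild type. The wild-type points of a probe lie close together, while knockout replicate 3 lies far below the rest at the Apoe, Apoc1 and Apoc4 probes. On each knockout array both Apoc2 probes, and also the Apoe probe, are below all wild-type arrays in these unnormalized signals.

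Apoc2 encodes the cofactor of lipoprotein lipase. Its brighter probe, ILMN_2647820, had deposited signals of 170, 276 and 82.8 in knockout replicates 1, 2 and 3, against 478, 363 and 412 in wild-type replicates 1, 2 and 3. All 3 knockout arrays lay below all 3 wild-type arrays, and on knockout replicate 3 the probe was not detected, with BeadStudio's value at 0.53. These signals are not normalized, and knockout replicates 1 and 3 were dim as a whole. The median tested probe had 76.4% and 57.2% of its wild-type mean on them. How many of all probes separated in deposited signals was not counted. After background correction and quantile normalization of the 5 arrays the log2 signals were 7.91 and 7.30 in knockout replicates 1 and 2, against 8.26, 8.16 and 8.38 in wild type. The mean was 7.61 ± 0.44 (SD, n = 2) in the knockout and 8.27 ± 0.11 (SD, n = 3) in wild type. The log2 change was -0.66 ± 0.21 (SE; 95% confidence interval -1.15 to -0.17; limma adjusted p = 0.324). Its p-value ranked 635 among the 14345 tested probes.

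The dimmer Apoc2 probe, ILMN_2880540, gave deposited signals of 103, 127 and 88.3 in knockout replicates 1, 2 and 3, against 164, 166 and 159 in wild type. Again the knockout arrays, including the dim replicates 1 and 3, were all lower. The 3 wild-type signals spread by only 2.2% (coefficient of variation). In the 5 arrays its log2 signals were 5.21 and 5.46 in the knockout, against 6.18, 6.52 and 6.41 in wild type. The log2 change was -1.03 ± 0.18 (SE; 95% confidence interval -1.45 to -0.62; limma adjusted p = 0.0822), which ranked 74 by p-value. The signals of this probe are near the array medians of 83.7 to 95 units, and the size of its fold moved with the background correction. Without that correction the log2 change was -0.45.

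The knockout arrays did not weigh alike on Apoc2. Leaving out the dim knockout replicate 1 gave log2 changes of -0.98 at the brighter probe and -0.955 at the dimmer. Leaving out knockout replicate 2 gave -0.35 at the brighter probe and -1.12 at the dimmer. Each of these fits leaves 1 knockout array, so only the size of the change is given. In all 6 arrays the log2 changes were -1.67 ± 0.86 (SE; limma adjusted p = 0.653) for the brighter probe and -0.65 ± 0.33 (limma adjusted p = 0.653) for the dimmer. There the dimmer probe's groups overlapped. Its normalized log2 signal was 6.16 on knockout replicate 3, where the probe was not detected.

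**Figure D2:**
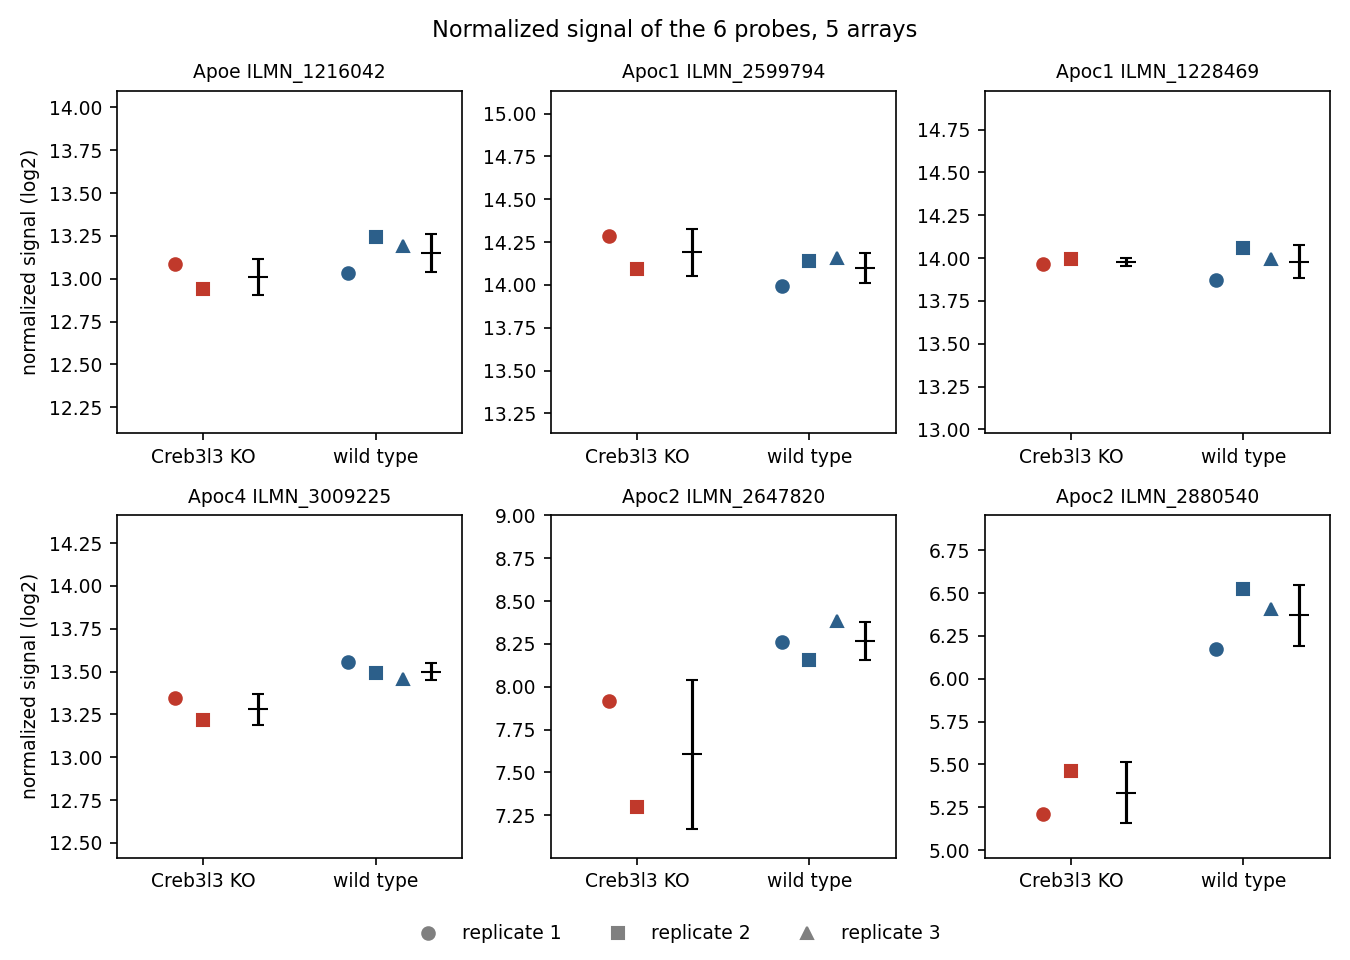
Normalized log2 signal of the 6 probes in the 5 arrays without knockout replicate 3, with 1 point per array and the mean and SD of each group as a black mark beside it; each panel spans the same height of 2 log2 units. Both Apoc2 probes and Apoc4 show knockout points below all wild-type points, while the points of Apoe and of both Apoc1 probes overlap.

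Apoe encodes the receptor ligand of remnant particles. Its probe had deposited signals of 3762, 9838 and 270 in knockout replicates 1, 2 and 3, against 10654, 9965 and 9869 in wild type. Knockout replicate 2 fell just below the wild-type signals, knockout replicate 1 had 37% of their mean and knockout replicate 3 had 2.66%. On the normalized scale of the 5 arrays the values were 13.09 and 12.94 in the knockout, against 13.03, 13.24 and 13.19 in wild type, and the groups overlapped. The log2 change was -0.14 ± 0.16 (SE; 95% confidence interval -0.51 to 0.23; limma adjusted p = 0.741), and -0.16 ± 0.19 (limma adjusted p = 0.683) with all 6 arrays. A change of any size within that first interval is compatible with these arrays, so a small change of Apoe is not excluded.

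Apoc4 encodes a minor protein of very-low-density lipoprotein. Its deposited signals were 4826, 12040 and 360 in knockout replicates 1, 2 and 3, against 14504, 12242 and 11889 in wild type. Knockout replicate 2 lay inside the wild-type range, and the dim arrays below it. Normalized log2 signals were 13.34 and 13.22 in the knockout, against 13.56, 13.49 and 13.46 in wild type, so that the groups did not overlap after normalization. The log2 change of -0.22 ± 0.15 (SE; 95% confidence interval -0.58 to 0.13) did not pass (limma adjusted p = 0.572), and all 6 arrays gave -0.23 ± 0.19 (limma adjusted p = 0.653). Over the cluster, 3 of 6 probes had knockout values wholly below wild type in the 5 arrays, Apoc4 and both of Apoc2, where 16.4% of all tested probes did. No probe of the cluster lay wholly above, where 12.9% of all did, so that 29.3% of all probes separated in either direction. In all 6 arrays 2 of 6 lay wholly below, Apoc4 and the brighter Apoc2 probe, where 13.4% of all probes did. None lay wholly above, against 3.99% of all, and 17.4% of all probes separated in either direction.

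Apoc1 encodes an inhibitor of lipoprotein lipase and of receptor-mediated uptake. Its brighter probe, ILMN_2599794, had deposited signals of 12005, 20275 and 920 in knockout replicates 1, 2 and 3, against 19753, 18440 and 18885 in wild type. Knockout replicate 2 was the highest of the 6 arrays. Normalized values were 14.29 and 14.09 in the knockout, against 13.996, 14.14 and 14.16 in wild type, with a log2 change of 0.09 ± 0.16 (SE; 95% confidence interval -0.28 to 0.46; limma adjusted p = 0.836). The second probe, ILMN_1228469, gave 9614, 19058 and 442 units in the knockout, against 18507, 17096 and 17111 in wild type. Its log2 change was 0.0016 ± 0.16 (SE; 95% confidence interval -0.36 to 0.36; limma adjusted p = 0.998). The sign of Apoc1 depends on the scaling: under median scaling, which put the median of all probes at -0.42, ILMN_2599794 stood at -0.30 and ILMN_1228469 at -0.39, and under cyclic loess they stood at 0.39 and 0.30.

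**Figure D3:**
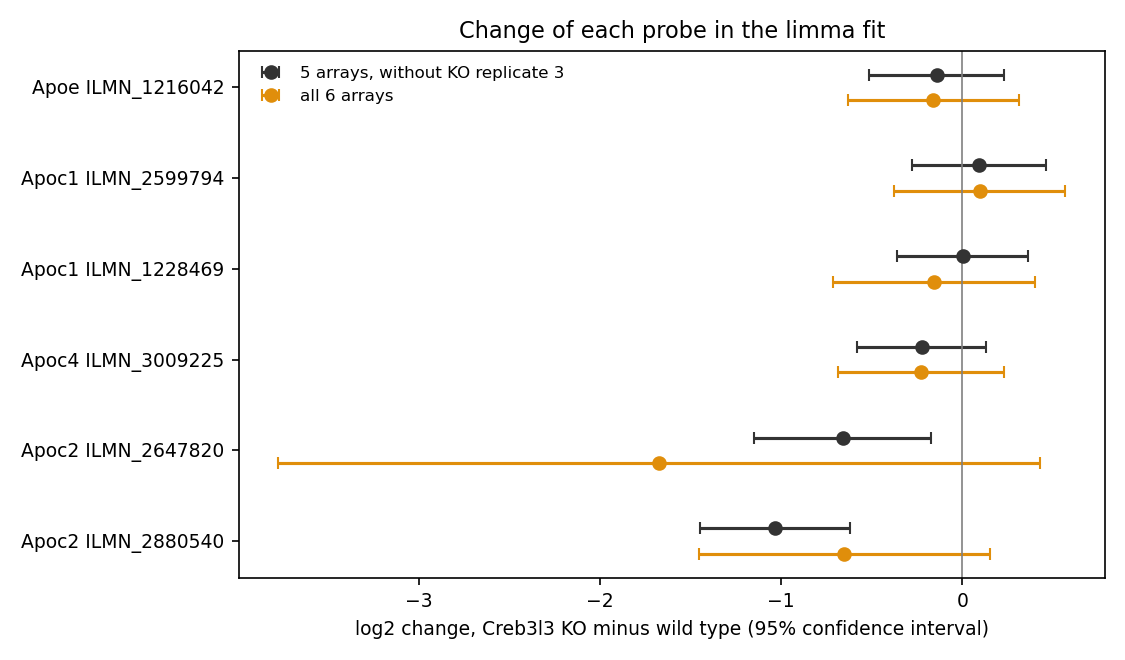
Log2 change, knockout minus wild type, of each probe with its 95% confidence interval from limma, in the 5 arrays (black) and in all 6 arrays (orange). The intervals of both Apoc2 probes lie below 0 in the 5 arrays, from -1.15 to -0.17 and from -1.45 to -0.62, and reach across 0 in all 6; those of Apoe, Apoc1 and Apoc4 reach across 0 in both.

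The probes of Apoe, Apoc1 and Apoc4 are among the brightest on the arrays, where quantile normalization sets a value by the probe's rank. Apoe ranked 110, 128 and 125 from the top on knockout replicates 1, 2 and 3, against 115, 91 and 97 in wild type. Apoc4 ranked 80, 94 and 86 in the knockout, against 63, 69 and 71, so each knockout array placed it lower than every wild-type array. The brighter Apoc1 probe ranked 24, 34 and 28, against 39, 31 and 30, with overlap. The other Apoc1 probe ranked 40, 39 and 68, against 44, 35 and 39. The brighter Apoc2 probe ranked 3073 and 4168 on knockout replicates 1 and 2, against 2573, 2711 and 2428 in wild type. The dimmer one ranked 10434 and 9308 there, against 6917, 5941 and 6265. On knockout replicate 3 neither Apoc2 probe was detected, so a rank there is no rank of Apoc2.

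A second view used the deposited signals without any normalization, as a percentage of each probe's wild-type mean. On knockout replicate 1 this share was 37% for Apoe, 37.5% for Apoc4, and 63.1% and 54.7% for the Apoc1 probes. The 100 probes brightest in wild type, a set chosen after the values were seen, had a median of 46.9% there and middle quartiles from 38.9% to 63.2%. On knockout replicate 2 the shares were 96.8% for Apoe, 93.5% for Apoc4, and 107% and 108% for the Apoc1 probes, beside a median of 105% and quartiles of 95.4% and 115%. On knockout replicate 3 they were 2.66% for Apoe, 2.79% for Apoc4, and 4.83% and 2.51% for the Apoc1 probes, beside a median of 3.55% and quartiles of 2.94% and 5.31%. Apoe and Apoc4 lay below the median of these bright probes on each knockout array, and the brighter Apoc1 probe above it. The other Apoc1 probe lay above it on knockout replicates 1 and 2 and below it on knockout replicate 3. The Apoc2 probes, which are much dimmer, had 40.8% and 63.1% on knockout replicate 1 and 66.1% and 77.8% on knockout replicate 2. The median over all tested probes on these arrays was 76.4% and 106%. That median takes probes of any brightness, in signals that include background, so it is not matched to the Apoc2 probes. On knockout replicate 1 the 40.8% of the brighter one lay inside the quartiles of the bright probes. Its 66.1% on knockout replicate 2 lay below them. Background is a larger part of the Apoc2 signals than of those of the bright probes, so these quartiles are not matched to Apoc2 either.

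Whether genes of the cluster changed unequally was tested on the difference between the brightest probes of 2 genes on the same array, which a shift common to both does not move. Of 6 pairs, those that set Apoc1 against Apoe, Apoc4 or Apoc2 separated the groups in each of 5 versions of the values, when Apoc1 was read from its brighter probe. These pairs share that probe and the versions come from the same mice, so they are not separate tests. How many pairs of other genes separate the groups was not counted, while 29.3% of single tested probes did so in the 5 arrays. The difference Apoc1 minus Apoe at that probe was 1.21, 1.16 and 1.24 on knockout replicates 1, 2 and 3, against 0.97, 0.90 and 0.97 on the wild-type arrays. Every knockout array exceeded every wild-type array, by 0.25 on average (exact permutation test, two-sided, n = 3 each, p = 0.1, the smallest p this design allows; 0.12 adjusted over the 6 pairs). In the 5 arrays the shift was 0.23 (exact permutation p = 0.2, again the smallest possible, and 0.24 adjusted). In their deposited signals it was 0.45, and the dim knockout replicate 1 weighed most in it. The difference there was 1.67 on knockout replicate 1 and 1.04 on knockout replicate 2, against 0.89, 0.89 and 0.94 in wild type. With the other Apoc1 probe, tried after the data were seen, the difference in all 6 arrays was 0.88, 1.06 and 0.55 on the knockout arrays, against 0.85, 0.82 and 0.81 in wild type. Those groups overlapped, with knockout replicate 3 below every wild-type array, and the shift was 0.0024 (exact permutation p = 1; 1 adjusted). In the 5 arrays that probe gave a shift of 0.14 with no overlap (exact permutation p = 0.2; 0.24 adjusted). The separation in all 6 arrays therefore held at 1 of the 2 Apoc1 probes.

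Apoc4 minus Apoe, in contrast, was 0.26, 0.28 and 0.31 on the knockout arrays, against 0.53, 0.25 and 0.27 in wild type. Those groups overlapped, and the shift was -0.07 (exact permutation p = 0.9; 0.9 adjusted). Apoc4 minus Apoc1 was -0.95, -0.88 and -0.93 on the knockout arrays, against -0.44, -0.65 and -0.71 in wild type. It moved by -0.32 with no overlap (exact permutation p = 0.1; 0.12 adjusted). With the other Apoc1 probe it was -0.62, -0.78 and -0.23 on the knockout arrays, against -0.32, -0.57 and -0.54 in wild type, so the groups overlapped and the shift was -0.07 (exact permutation p = 0.8; 1 adjusted). In the 5 arrays that probe gave -0.225 with no overlap (exact permutation p = 0.2; 0.24 adjusted).

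Apoc2 minus Apoe was -5.15, -5.61 and -8.41 on knockout replicates 1, 2 and 3, against -4.76, -5.07 and -4.80 in wild type. Apoc2 minus Apoc4 was -5.41, -5.88 and -8.72, against -5.29, -5.32 and -5.06. Both separated the groups in the normalized values (exact permutation p = 0.1 in all 6 arrays and 0.2 in 5; 0.12 and 0.24 adjusted), with shifts of -0.52 and -0.44 in the 5 arrays. In the deposited signals of the 5 arrays both overlapped, with shifts of -0.20 and -0.19 (exact permutation p = 0.8 for both; 0.96 adjusted). On knockout replicate 3 the Apoc2 probe was not detected, so its values there have no level of Apoc2 behind them. With the dimmer Apoc2 probe in its place the shifts in the 5 arrays were -0.89 against Apoe and -0.81 against Apoc4, with no overlap (exact permutation p = 0.2 for both; 0.24 adjusted). They were -0.49 and -0.42 in all 6 arrays, and the groups overlapped (exact permutation p = 0.4 for both; 0.48 adjusted).

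**Figure D4:**
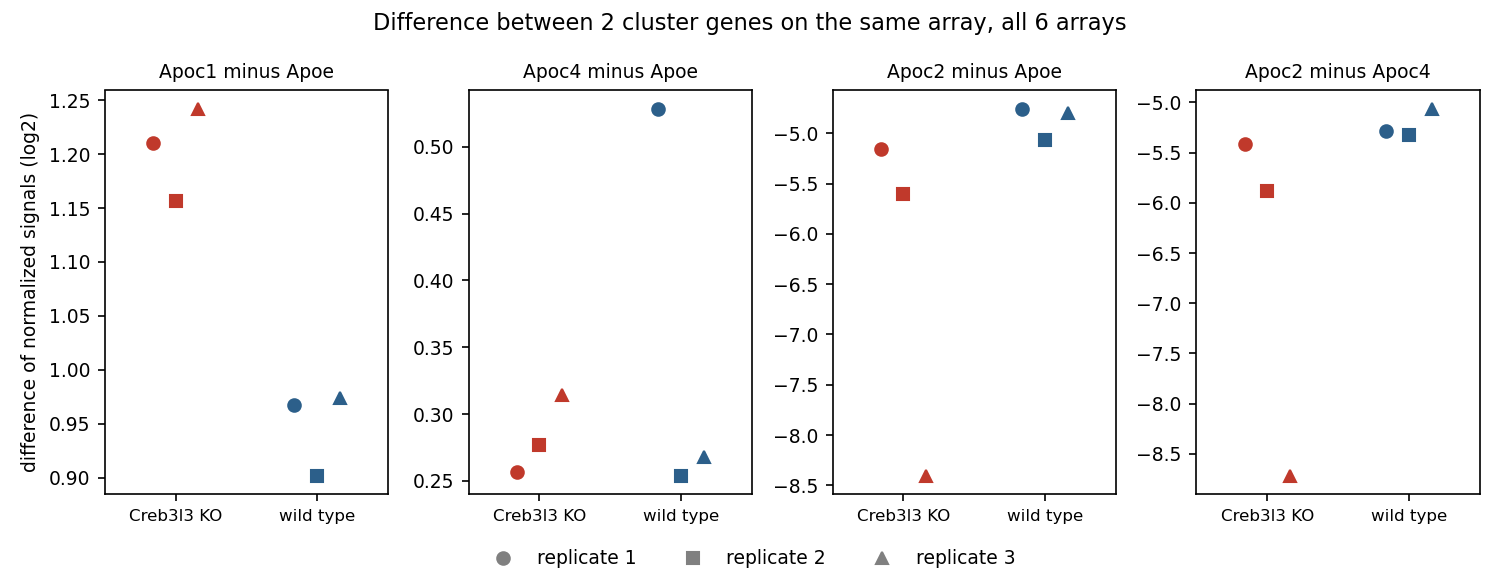
Difference of normalized log2 signals between 2 genes of the cluster on the same array, for all 6 arrays, with each gene read from its brightest probe, knockout left of wild type and 1 point per array. Apoc1 minus Apoe lies between 1.16 and 1.24 in the knockout, above 0.90 to 0.97 in wild type; Apoc4 minus Apoe overlaps; Apoc2 minus Apoe and Apoc2 minus Apoc4 are lower in the knockout, with knockout replicate 3 far below.

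Genes flanking the cluster gave no call. Clptm1, beside Apoc2, had a log2 change of -0.14 ± 0.16 (SE; limma adjusted p = 0.738) in the 5 arrays. Tomm40, which encodes a pore of the outer mitochondrial membrane and lies beside Apoe, had -0.06 ± 0.17 (limma adjusted p = 0.904) at its brighter probe and -0.12 at the other. The adhesion receptor gene Nectin2 had -0.22, -0.44 and -0.66 at its 3 probes, the last with an unadjusted p of 0.0126 and a limma adjusted p of 0.314. Bcam, another adhesion gene, had 0.37 ± 0.23 (limma adjusted p = 0.535) at its 1 tested probe, and the probe of Relb did not pass the detection filter. Of the tested flanking probes, only that Nectin2 probe had knockout values wholly below wild type in the 5 arrays. Among all tested probes 16.4% did. All 6 arrays gave -0.22 for Clptm1, -0.25 and -0.21 for Tomm40 and 0.14 for Bcam. For the Nectin2 probes they gave 0.46, -0.61 and -0.98 in the same order, so the first changed sign (limma adjusted p = 0.692). The differences between Apoc2 and these neighbours were not tested.

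**Figure D5:**
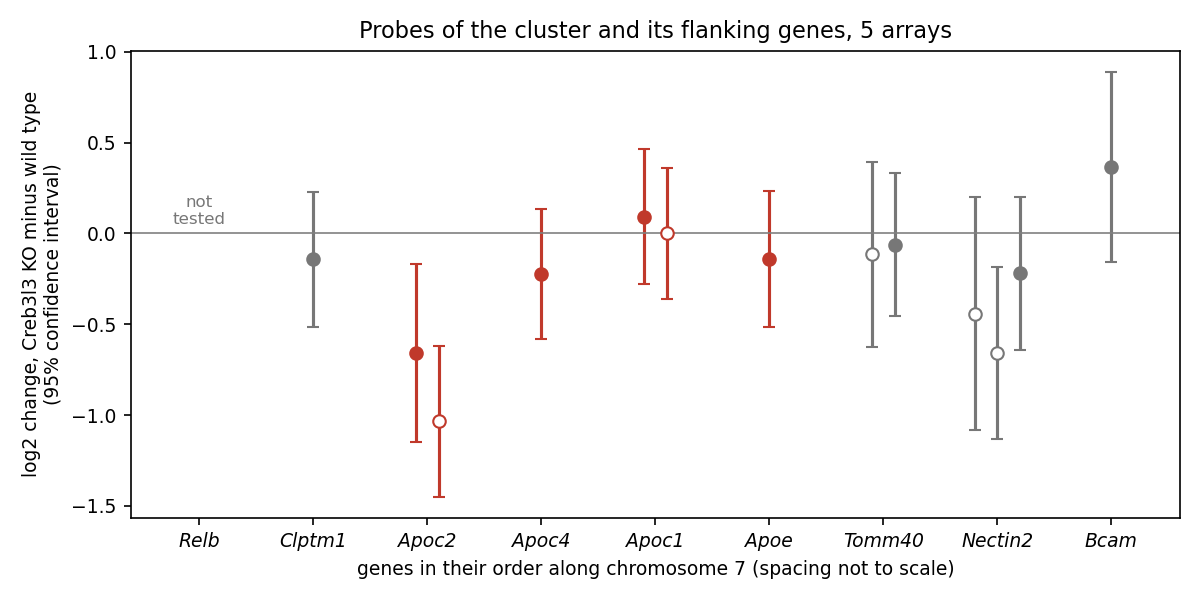
Log2 change with its 95% confidence interval in the 5 arrays for each tested probe of the cluster (red) and of its flanking genes (grey), in gene order along chromosome 7 with spacing not to scale; open points are the dimmer probes of a gene. Both Apoc2 probes and 1 Nectin2 probe have intervals below 0.

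Of 15 genes for receptors of apolipoprotein E and for uptake of its particles, 12 were measured in the 5 arrays. The median log2 change was 0.09, beside -0.03 over all tested probes, and 4 of the 12 lay below 0. The median was -0.0062 in all 6 arrays, beside -0.28 over all tested probes, and 6 lay below 0. Scarb1, which encodes a receptor for high-density lipoprotein, had a log2 change of -0.42 ± 0.24 (SE; limma adjusted p = 0.504), and of 0.0084 in all 6 arrays. Mylip, a ubiquitin ligase gene that is also a target of the liver X receptors, stood at 0.50 ± 0.29 (limma adjusted p = 0.507), and at 1.08 in all 6 arrays.

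The liver X receptors and their targets had 11 of 15 genes measured, and limma called 0 of them. Unadjusted p-values under 0.05 fell to 1 gene above 0 and 3 below, and the median was -0.20. Of all tested probes 12.1% had such a p, and 7.47% were lower with it. With all 6 arrays, limma gave such a p to 0 of the 11, against 3.85% of all tested probes, and the list's median was -0.68. Lower values were given by Cyp7a1, the rate-limiting enzyme of bile acid synthesis (-0.79 ± 0.21, limma adjusted p = 0.241), the phospholipid transfer protein Pltp (-0.56 ± 0.22) and the desaturase Scd1 (-0.92 ± 0.37). The log2 signals of Pltp were low, with means of 4.77 in the knockout and 5.33 in wild type in the 5 arrays. All 6 arrays gave -1.82 for Cyp7a1, -0.54 for Pltp and -0.75 for Scd1. Lpl, the enzyme that apolipoprotein C-II activates, had 0.61 ± 0.20 (limma adjusted p = 0.342) in the 5 arrays and -0.69 ± 1.07 (limma adjusted p = 0.733) in all 6, so its direction turned.

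Other regulators of the locus or of hepatic apolipoprotein genes had 10 of 12 genes measured, with 1 call, a lower one, and a median of -0.12. The call was Ppara, the fasting-activated nuclear receptor, with a log2 change of -1.24 ± 0.17 (limma adjusted p = 0.0345). Its log2 signals were low, with means of 4.57 in the knockout and 5.815 in wild type. The size of the change moved with the background correction, and without that correction Ppara stood at -0.42. Only 4 of 16 alternatives called it, and all 6 arrays gave -1.25 (limma adjusted p = 0.653). Nr1h4, the bile acid receptor (-0.21 ± 0.18, limma adjusted p = 0.654), Nr5a2 (-0.22 ± 0.19, limma adjusted p = 0.656) and Hnf4a (0.17 ± 0.16, limma adjusted p = 0.672) did not pass. All 6 arrays gave them 0.02, -0.24 and 0.06, and the list a median of -0.27.

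Apolipoproteins and lipoprotein proteins outside the cluster had 17 of 21 genes measured, with 1 call, a lower one, and a median of -0.07. The call was Apoa4, with -3.56 ± 0.36 (limma adjusted p = 0.013). Apon (-0.88 ± 0.16, limma adjusted p = 0.0922) and Apoa5 (-0.82 ± 0.22, limma adjusted p = 0.241) had changes of the size of Apoc2, and Saa1, an acute phase apolipoprotein, had 1.82 ± 0.43 (limma adjusted p = 0.202). All 6 arrays gave -4.49 for Apoa4, -1.01 for Apon, -2.004 for Apoa5 and 1.45 for Saa1, and the list a median of -0.22. Genes of lipoprotein lipase activity had 12 of 14 measured, a median of -0.05 and no limma call. Its unadjusted p-values under 0.05 were those of Lpl, above 0, and Apoa5, below it, a count of 1 each way. Over all tested probes 12.1% had such a p. The lipase list had 0 such p-values and a median of -0.54 in all 6 arrays. Angptl6, of the angiopoietin-like family, stood at -0.35 ± 0.16 (limma adjusted p = 0.437), and at -0.92 in all 6 arrays. The study is about genes of both lists, so their direction is not independent evidence. In all 6 arrays 0 genes of these 5 lists were called. There limma gave unadjusted p-values under 0.05 to 1 regulator and 3 apolipoprotein genes among the regulators and apolipoproteins. Over all tested probes 3.85% had such a p in all 6 arrays.

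Since macrophages also express Apoe and Apoc1, markers of Kupffer cells, the resident macrophages of liver, were set beside these genes. Of 12 markers 11 were measured, 0 passed and 9 lay above 0, with a median log2 change of 0.16, where 54.7% of all tested probes lay below 0. With all 6 arrays, 6 of the 11 lay below 0 and the median was -0.14. Adgre1 had 0.69 ± 0.17 (limma adjusted p = 0.219) and Marco 0.95 ± 0.26 (limma adjusted p = 0.252), both named after their values were seen because they had unadjusted p-values under 0.05. They stood at 0.44 and 0.37 in all 6 arrays, and neither had such a p there. The summed linear level of the list was 2652 to 2932 in the knockout arrays and 2337 to 2747 in wild type, and the ranges overlapped. In all 6 arrays the sums were 902 to 2485 in the knockout and 1988 to 2330 in wild type. A positive median in the 5 arrays was not particular to Kupffer cells. Markers of endothelium, stellate cells, cholangiocytes and lymphocytes had medians of 0.204, 0.205, 0.272 and 0.25, while erythroid markers had -0.642. In all 6 arrays these lists had -0.326, 0.175, -0.774, 0.0607 and -0.381. The 8 measured hepatocyte markers summed to 98980 and 105200 in the knockout arrays, below 107800 to 111500 in wild type. A linear sum is weighted toward the brightest genes. Of the 8, 5 lay below 0, 2 of them with an unadjusted limma p under 0.05, and 0 passed. Over all tested probes 7.47% were lower with such a p. The median of the hepatocyte markers was -0.02 (-0.22 in all 6 arrays). In all 6 arrays the sums were 72960 to 88810 in the knockout and 91110 to 94410 in wild type. The part of either cell type in the values of the cluster was not tested. In whole liver, fewer cells of a type and less RNA per cell cannot be told apart.

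The genes whose profile over the 5 arrays was most like a member's were found by the root mean square difference of log2 signals centred on each gene's mean, among 10054 other genes. Apoc2 was most like St3gal3 (0.064), Tm7sf2 (0.066) and Spp2 (0.071). Apoc4 was nearest to Sun2 (0.026), Ceacam2 (0.029) and Ndufc1 (0.030). Apoe was nearest to Cdk13 (0.0058), Cmpk1 (0.022) and Tsc2 (0.029), and Apoc1 to Cp (0.019), Bri3 (0.020) and Hnrnpll (0.020). None of the 4 genes was among the nearest 3 of another, and between members the distance ran from 0.106 for Apoc4 and Apoe to 0.400 for Apoc2 and Apoc1. With 5 arrays and many genes of small change, such likeness is a description.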

How the data were processed

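Liver RNA of 3 Creb3l3 knockout and 3 wild-type mice, 1 array each, was analysed, with groups and replicate numbers from the sample titles. The deposited array tables give a mean bead intensity per probe, by its values neither normalized nor background-subtracted, and a detection p-value per probe and array, made with BeadStudio 3 per the submitters' processing notes. The deposited series value table holds linear intensity values that matched quantile-normalized signals, with no centring or direction to settle and column medians of 91.6 to 91.7. In it, wild-type replicates 2 and 3 stand in each other's place when set against the array tables. It served as an alternative. The submitters' method for it is not stated.

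The neqc steps of limma 3.58.1 (R 4.3.3) were applied to the signals (normexp with negative controls inferred from detection p-values, offset 16, quantile normalization, log2). A probe needed detection at p under 0.05 on 3 or more arrays, which left 14345 for 5 arrays and 14494 for 6. lmFit and eBayes had a genotype term and no other, with two-sided tests, Benjamini-Hochberg adjustment over kept probes and calls at an adjusted p under 0.05. The probe of highest mean signal stands for its gene. Named were all member probes, the flanking genes, up to 4 genes of smallest p per list, and the 3 nearest profiles. Symbols were updated through the RefSeq table of GRCm38.p6: 27740 probes had a current symbol, 8037 a synonym and 9504 an unmatched name. The number of arrays limits the precision, and no batch is given in the labels. Alternatives covered normalization, background, filter, weights, variance prior, the value table, a replicate block and each mouse left out. Some genes of the lists are not reported here. The fit was tested on simulated data. Members and lists were chosen with earlier results of these data known. Figures used matplotlib 3.10.9.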

Additional observations from a re-analysis of the deposited data

How the results depend on the processing

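No probe of Apoe, Apoc1 or Apoc4 was called under any of 16 alternatives to the fit of 5 arrays. The log2 change ran from -0.758 to -0.0582 for Apoe, -0.767 to -0.0721 for Apoc4, -0.296 to 0.386 for Apoc1 ILMN_2599794 and -0.386 to 0.298 for Apoc1 ILMN_1228469. Apoc1 turned negative under median scaling (-0.296 and -0.386, where all probes had a median of -0.425). ILMN_2599794 was also negative without knockout replicate 1 (-0.00876), and its values with a mouse left out ran from -0.00876 to 0.197. ILMN_1228469 was negative in all 6 arrays (-0.157), without knockout replicate 2 (-0.0169) and without wild-type replicate 1 (-0.0531), and with a mouse left out it ran from -0.0531 to 0.0467. Both Apoc2 probes stayed below 0 under all 16, from -1.67 to -0.346 at the brighter and -1.29 to -0.404 at the dimmer. The dimmer one was called with a trended and robust variance (-1.03, limma adjusted p = 0.0465). With each mouse left out its values ran from -1.12 to -0.955. The fits without knockout replicate 1 or 2 leave 1 knockout array, so their calls are not given. The 49 calls over all probes became 0 in all 6 arrays, 83 under cyclic loess, 4 under median scaling, 85 without background correction, 108 with an offset of 50, 1 with no filter, 32 with array weights, 122 with a trended variance and 83 with the value table, and ran from 9 to 2234 with a mouse left out, the highest without knockout replicate 2. The 0 calls of all 6 arrays became 3 under cyclic loess and 2832 with array weights, and ran from 0 to 49 with a mouse left out. The r between deviations of same-numbered mice was -0.132 for both pairs in 5 arrays. With 2 knockout arrays the deviations from their mean mirror each other, so this check can neither show nor exclude pairing. The numbers were not taken to pair mice. A replicate block gave 47 calls and log2 changes of -0.602 and -1.02 for Apoc2. The within-array differences kept their sign in all versions; cyclic loess and the second probes of Apoc1 and Apoc2 were added after seeing the data. With the second Apoc1 probe in all 6 arrays, Apoc1 minus Apoe came to 0.00241 and Apoc4 minus Apoc1 to -0.07, both with overlapping groups. The causes of these shifts were not tested. On the array of knockout replicate 3 neither Apoc2 probe rose above background.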
